A study of Homo sapiens with 12 samples.

Results

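The RNAs described here are 236 long non-coding RNAs: intergenic transcripts with LINC symbols, small nucleolar RNA host genes (SNHG), microRNA host genes (MIR...HG), and MALAT1 and NEAT1. They were chosen from 60676 gene rows by symbol, which gave 2385 candidates, and then by level: a mean of at least 1 CPM (counts scaled to 1000000 reads counted in genes) in at least 1 of the 4 groups. The 236 comprised 185 of 2271 LINC genes, 21 of 28 SNHG genes, 28 of 84 microRNA hosts, and both nuclear body RNAs. Of the candidates, 1152 had no count in any library. The rule used group means, so levels are a description: 175 members reached 1 CPM in all 4 groups, 61 did not, and 23 reached it in 1 group only. Members just inside the limit were LINC00324, LINC02432 and LINC02595, with 1.01 CPM each in their highest group. Just outside were LINC01085 and LINC02985, with 0.994 CPM each, and LINC02882, with 0.978 CPM.

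Long non-coding RNAs are transcripts without an established protein product. MALAT1 is retained in the nucleus and concentrates in nuclear speckles, where splicing factors are stored, and NEAT1 is the scaffold on which paraspeckles are built. SNHG genes carry small nucleolar RNAs in their introns, microRNA host genes carry microRNA precursors that are cut out of the primary transcript, and many LINC RNAs are transcribed beside genes for developmental regulators. TGF-β activates SMAD transcription factors, and its response in lung adenocarcinoma cells is a standard model of epithelial-to-mesenchymal change.

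The cells were A549, an established human lung adenocarcinoma line, and all of them had been transduced with a lentiviral construct and selected with puromycin. LETS1 cells carried a construct expressing the long non-coding RNA LETS1, and Co.vec cells carried the empty vector pCDH-EF1a-PURO. The 4 groups, each of 3 libraries from total RNA, were LETS1 cells with 5 ng/mL TGF-β for 4 h, LETS1 cells with ligand buffer for 4 h, Co.vec cells with TGF-β, and Co.vec cells with buffer. The labels do not say whether replicates came from separate transductions, so p-values measure the spread between these samples, and in bulk RNA fewer cells with a transcript and less of it per cell cannot be told apart.

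Reads counted in genes numbered 19705135 to 20351043 per library, and the 236 members held 0.256% to 0.322% of them. All 11 A549 markers were at 1 CPM or more in every library. Of 14 markers of other cell types, 11 were under 1 CPM in every library and SCGB1A1 was at 0. The summed level of those 14 was 131.6 to 148.7 CPM in LETS1 cells with TGF-β and 21.4 to 26.1 in LETS1 cells in buffer. It was 120.8 to 129.8 CPM in Co.vec cells with TGF-β and 14.8 to 15.9 in Co.vec cells in buffer. Most of it was COL1A1, and its part in the results was not tested. All 10 genes of a TGF-β response check, among them PMEPA1, rose with TGF-β in both cell populations. Of all genes tested, 19.7% rose in LETS1 cells and 21.1% in Co.vec cells. The level of LETS1 itself was not checked, since 0 gene rows carried that symbol.

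Levels per length were compared as mean CPM over 12 libraries per kilobase of annotated exon. On this scale MALAT1 (68.5) and LINC02582 (67.9) stood highest, followed by SNHG29 (35.8), SNHG19 (32.5), SNHG5 (29.3) and MIR31HG (22.4), while NEAT1, a much longer transcript, was at 14.0. The median member had 2.69 CPM, against 16.9 for all 16192 genes that passed the filter on low counts, and all 236 members passed it. Exons of 76 members overlapped another gene, 32 on the same strand and 57 on the other. The strand setting of the counting is not given in the sources used here, so reads of such pairs may be shared or lost, and their values are uncertain. LINC02086, LINC01629, MIR100HG and MALAT1, described below, are among these members.

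With TGF-β, most responding members fell. In LETS1 cells 29 members rose and 62 fell (12.3% and 26.3%), while 19.7% of all genes tested rose and 19.1% fell. In Co.vec cells 35 rose and 54 fell (14.8% and 22.9%), while 21.1% of all genes rose and 18.6% fell. A call is an adjusted p under 0.05 in edgeR's quasi-likelihood test with Benjamini-Hochberg adjustment over all genes tested. The median log2 fold change of members was -0.17 in LETS1 cells and -0.12 in Co.vec cells, against -0.02 in both for all genes. Among the 208 members with a mean of 1 CPM over all 12 libraries, 27 rose and 56 fell in LETS1 cells, and 32 rose and 49 fell in Co.vec cells. These counts describe RNAs that were chosen partly by level and whose abundance is lower than that of most genes tested. Of the 185 LINC RNAs, 22 rose and 51 fell in LETS1 cells and 26 rose and 47 fell in Co.vec cells. At least 2-fold changes were fewer: 7 members rose and 9 fell in LETS1 cells, beside 3.43% and 2.12% of all genes, and 12 rose and 9 fell in Co.vec cells, beside 3.82% and 1.75%. Of the 208 members, 6 rose and 8 fell at least 2-fold in LETS1 cells, and 10 rose and 6 fell in Co.vec cells.

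The LETS1 and Co.vec comparisons share no library. In both, 27 members rose (11.4%; 16.6% of all genes) and 40 fell (16.9%; 13.0% of all genes), and 0 members rose in one and fell in the other. The 27 shared risers spanned log2 0.19 to 4.90 in LETS1 cells and 0.29 to 5.56 in Co.vec cells. The 40 shared fallers spanned -2.01 to -0.20 in LETS1 cells and -2.10 to -0.14 in Co.vec cells.

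**Figure D1:**
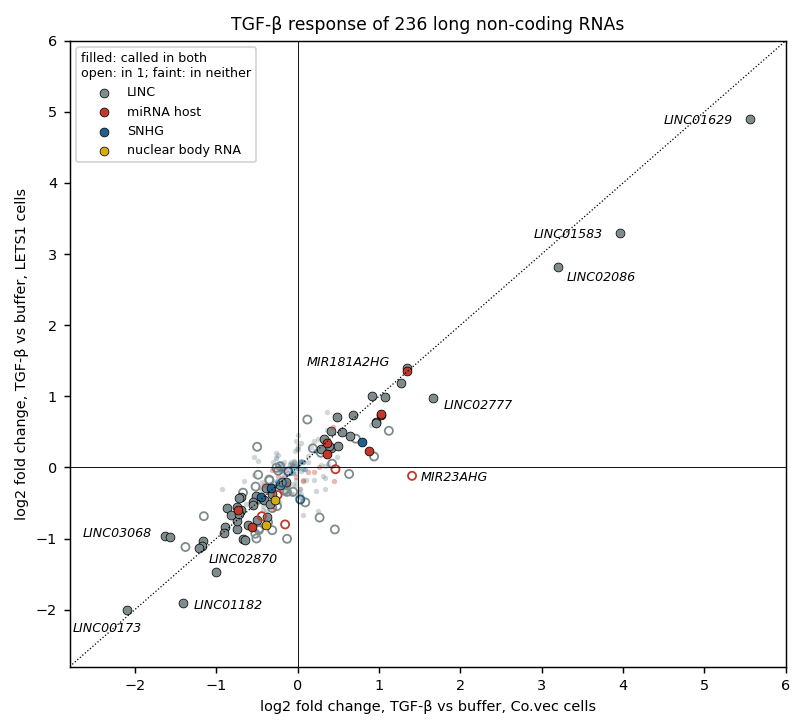
TGF-β response (log2 fold change against buffer) of the 236 long non-coding RNAs in Co.vec cells (x axis) and LETS1 cells (y axis). Filled points were called in both comparisons, open points in 1 and faint points in neither, the colour gives the class, and the dotted line marks equal change. Filled points lie in the upper right or lower left, with LINC01629, LINC01583 and LINC02086 farthest up, and MIR23AHG is an open point near 0 in LETS1 cells and at 1.41 in Co.vec cells.

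LINC02086 had the best measured rise, though its exons overlap those of another member, LINC03057 (AC103702.2), on the other strand. LINC03057 was not called with TGF-β in either population and was lower in LETS1 cells in both conditions. The LINC02086 gene lies on the plus strand at chr17:48646923-48707346 (GRCh38) beside the HOXB cluster of developmental transcription factors. It was at 76.4, 76.7 and 76.7 CPM in LETS1 cells with TGF-β and 11.1, 11.5 and 11.1 CPM in LETS1 cells in buffer. Levels in Co.vec cells were 76.4, 71.9 and 77.5 CPM with TGF-β and 8.50, 8.41 and 8.50 CPM in buffer. TGF-β and buffer libraries were far apart in both populations, and the level with TGF-β was alike in the LETS1 and Co.vec libraries. The rise was 7.07-fold in LETS1 cells (log2 2.82 ± 0.06 SE, edgeR adjusted p = 5.44e-31) and 9.19-fold in Co.vec cells (3.20 ± 0.07, adjusted p = 3.72e-32). In buffer all 3 LETS1 libraries were above all 3 Co.vec libraries (log2 0.41 ± 0.08, edgeR adjusted p = 3.54e-04). The 2 responses differed by -0.38 ± 0.10, with an edgeR adjusted p of 0.0597, and this passed the threshold without Co.vec TGF-β replicate 2 (-0.41, adjusted p = 0.0320). HOXB7, the nearest coding gene with its start 13351 bp away, changed by -0.06 in LETS1 cells and -0.03 in Co.vec cells and was not called.

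LINC01629 and LINC01583 were close to silent in buffer. LINC01629 (chr14:76959638-76965802, plus strand) had 2.01, 2.26 and 1.98 CPM in LETS1 cells with TGF-β and 0.0998, 0.0497 and 0.0495 CPM in buffer. Levels in Co.vec cells were 2.02, 2.33 and 1.14 CPM with TGF-β and was at 0, 0.101 and 0 CPM in buffer. Since it reached 1 CPM in the TGF-β groups only, a difference was in part fixed by how members were chosen. As counts this was 126 with TGF-β against 4 in buffer in LETS1 cells, a ratio of 31.4 (95% exact interval 11.97 to 117.1). In Co.vec cells it was 109 against 2, a ratio of 54.1 (14.6 to 452.3), and both intervals cover counting error only. LINC01583 (chr15:82088594-82097694, plus strand) had 2.81, 2.90 and 1.98 CPM in LETS1 cells with TGF-β and 0.299, 0.149 and 0.346 CPM in buffer. The Co.vec libraries had 2.62, 2.84 and 2.43 CPM with TGF-β and 0.202, 0.101 and 0.202 CPM in buffer, so the groups did not overlap in either population. LINC01583 too reached 1 CPM in the TGF-β groups only, which favoured such a separation. Its log2 changes were 3.30 ± 0.30 and 3.96 ± 0.33, in LETS1 and Co.vec cells. MEX3B, an RNA-binding protein gene on the other strand 42453 bp away, also rose, by 1.64 in LETS1 cells (edgeR adjusted p = 6.87e-18) and 1.78 in Co.vec cells (adjusted p = 3.52e-18).

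The start regions of these RNAs are shown because they are the windows in which sequence motifs could be compared between strongly rising members. Each runs from 250 bases before to 50 after a RefSeq start (GRCh38.p14), 5′ to 3′ on the gene's strand. Capitals mark CAGAC, a core bound by SMAD proteins, TGANTCA, the element bound by AP-1 factors such as JUN, and the palindrome GTCTAGAC, all searched on both strands, so that CAGAC on the other strand reads GTCTG. The LINC02086 windows are chr17:48642377-48642676 and chr17:48646509-48646808, both plus strand, with 1 and 3 matches to CAGAC.
LINC02086 window 1: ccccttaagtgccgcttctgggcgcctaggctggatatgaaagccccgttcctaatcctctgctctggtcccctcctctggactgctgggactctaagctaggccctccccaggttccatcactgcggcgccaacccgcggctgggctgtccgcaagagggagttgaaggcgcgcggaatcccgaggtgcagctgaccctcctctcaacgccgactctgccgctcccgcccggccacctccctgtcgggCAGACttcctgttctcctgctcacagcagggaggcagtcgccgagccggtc
LINC02086 window 2: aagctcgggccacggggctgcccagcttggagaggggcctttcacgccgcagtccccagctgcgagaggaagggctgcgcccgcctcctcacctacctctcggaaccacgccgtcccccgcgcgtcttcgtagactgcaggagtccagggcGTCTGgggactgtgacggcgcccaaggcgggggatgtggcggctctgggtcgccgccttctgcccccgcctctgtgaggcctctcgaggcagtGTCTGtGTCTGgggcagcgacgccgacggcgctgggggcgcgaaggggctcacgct
The LINC01629 window, chr14:76959388-76959687 on the plus strand, held 2 matches to CAGAC and 2 to TGANTCA.
LINC01629: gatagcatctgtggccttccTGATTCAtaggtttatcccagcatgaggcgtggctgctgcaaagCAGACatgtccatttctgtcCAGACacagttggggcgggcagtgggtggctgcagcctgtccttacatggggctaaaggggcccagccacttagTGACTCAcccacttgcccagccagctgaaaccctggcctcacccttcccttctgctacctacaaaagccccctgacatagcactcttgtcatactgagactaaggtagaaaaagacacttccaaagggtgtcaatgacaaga
The window of LINC02735, chr11:56848228-56848527 on the plus strand, is shown because it alone among 214 member windows held GTCTAGAC.
LINC02735: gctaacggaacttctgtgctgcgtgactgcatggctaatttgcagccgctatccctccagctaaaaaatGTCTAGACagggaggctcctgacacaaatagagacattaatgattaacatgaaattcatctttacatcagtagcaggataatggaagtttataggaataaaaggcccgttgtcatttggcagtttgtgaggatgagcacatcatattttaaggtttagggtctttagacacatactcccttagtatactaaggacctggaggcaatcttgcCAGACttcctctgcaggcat
The LINC01583 window held no match to any of the 3 motifs in its 300 letters. Of 35116 RefSeq windows, 45.3% held CAGAC, 7.71% TGANTCA and 0.202% GTCTAGAC. Among 36 windows of 23 members that rose in both populations the shares were 44.4%, 13.9% and 2.78%, the last being 1 window. Among 34 windows of 31 members that fell in both they were 41.2%, 11.8% and 0%. A match is a string of letters, not a measured binding site.

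LINC02735 itself was higher with TGF-β and higher in LETS1 cells (log2 0.89 ± 0.23 with TGF-β and 1.24 ± 0.28 in buffer). The difference with TGF-β was lost without Co.vec TGF-β replicate 2 (0.69, edgeR adjusted p = 0.0609). It had 2.41, 2.06 and 1.93 CPM in LETS1 cells with TGF-β and 1.40, 1.39 and 1.53 CPM in LETS1 cells in buffer, against 1.56, 0.812 and 1.09 CPM and 0.759, 0.456 and 0.607 CPM in Co.vec cells with TGF-β and in buffer. TGF-β raised it by log2 0.62 ± 0.22 in LETS1 cells (edgeR adjusted p = 0.0211) and 0.97 ± 0.30 in Co.vec cells (adjusted p = 8.70e-03). The call in LETS1 cells was lost without LETS1 TGF-β replicate 1 (0.0919), LETS1 buffer replicate 1 (0.0589) or LETS1 buffer replicate 2 (0.0548), and in DESeq2 (0.0795). The call in Co.vec cells was lost without Co.vec TGF-β replicate 1 (0.105) or Co.vec buffer replicate 2 (0.0545), all values being adjusted p, from edgeR unless named. It was under 1 CPM in the Co.vec buffer group alone.

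Smaller rises had other coding neighbours. LINC02777, whose start is 119420 bp from JUN, an AP-1 subunit gene, had 1.00, 1.18 and 0.840 CPM in LETS1 cells with TGF-β and 0.649, 0.447 and 0.495 CPM in buffer. In Co.vec cells it had 1.61, 0.812 and 1.48 CPM with TGF-β and 0.405, 0.507 and 0.354 CPM in buffer. Since it reached 1 CPM in the TGF-β groups only, its selection favoured a rise. Its rise was 0.98 ± 0.32 in LETS1 cells (edgeR adjusted p = 0.0151) and 1.67 ± 0.33 in Co.vec cells (adjusted p = 6.30e-05). The first call was lost without LETS1 TGF-β replicate 2 (adjusted p = 0.0758) or LETS1 buffer replicate 2 (adjusted p = 0.0609). JUN rose by 0.97 in LETS1 cells and 2.13 in Co.vec cells. LINC00623 likewise reached 1 CPM in the TGF-β groups only, and it lies in a duplicated region of chromosome 1 where reads may be split between copies. It rose by 1.40 ± 0.29 in LETS1 cells and 1.35 ± 0.33 in Co.vec cells.

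Among the fallers, LINC00173 changed most. It was at 1.05, 1.08 and 1.38 CPM in LETS1 cells with TGF-β and 5.39, 5.52 and 3.86 CPM in buffer. Its Co.vec libraries had 1.26, 0.964 and 1.29 CPM with TGF-β and 4.91, 5.47 and 5.26 CPM in buffer. Every TGF-β library was below every buffer library, with a 4.02-fold lower level in LETS1 cells (log2 -2.01 ± 0.19, edgeR adjusted p = 9.97e-12) and 4.28-fold lower in Co.vec cells (-2.10 ± 0.18, adjusted p = 2.455e-12). LINC01182 fell by 1.91 ± 0.17 in LETS1 cells and 1.41 ± 0.15 in Co.vec cells on the log2 scale.

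LINC00261 shares a locus with FOXA2, a forkhead transcription factor of endoderm and lung epithelium, and the pair fell together. LINC00261 (chr20:22547671-22578642, minus strand) was at 3.26, 2.85 and 3.81 CPM in LETS1 cells with TGF-β and 7.09, 7.46 and 6.53 CPM in buffer. The Co.vec libraries were at 2.93, 2.84 and 3.27 CPM with TGF-β and 6.88, 6.53 and 7.49 CPM in buffer, so the TGF-β and buffer libraries did not overlap. It fell by 1.03 ± 0.13 in LETS1 cells (edgeR adjusted p = 2.30e-08) and 1.16 ± 0.13 in Co.vec cells (adjusted p = 2.76e-09). FOXA2, whose start is 6813 bp away on the same strand, fell by 0.94 in LETS1 cells and 1.00 in Co.vec cells. An annotated transcript on the same strand, AL121722.1, overlaps exons of LINC00261, so its counts may be incomplete.

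LINC02870 and LINC03068 lie on opposite strands within one stretch of chromosome 10, and PWWP2B, a chromatin protein gene, is the nearest coding gene of both. LINC02870 was at 10.8, 10.96 and 9.73 CPM in LETS1 cells with TGF-β and 21.2, 24.9 and 26.1 CPM in buffer. Levels in Co.vec cells were 10.4, 11.2 and 11.4 CPM with TGF-β and 26.1, 27.6 and 25.3 CPM in buffer, with no overlap in either population. It fell by 1.14 ± 0.08 in LETS1 cells (edgeR adjusted p = 1.98e-14) and 1.21 ± 0.08 in Co.vec cells (adjusted p = 1.97e-15). LINC03068 fell by 0.97 ± 0.15 in LETS1 cells and 1.57 ± 0.14 in Co.vec cells, and PWWP2B by 0.47 and 0.48.

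**Figure D2:**
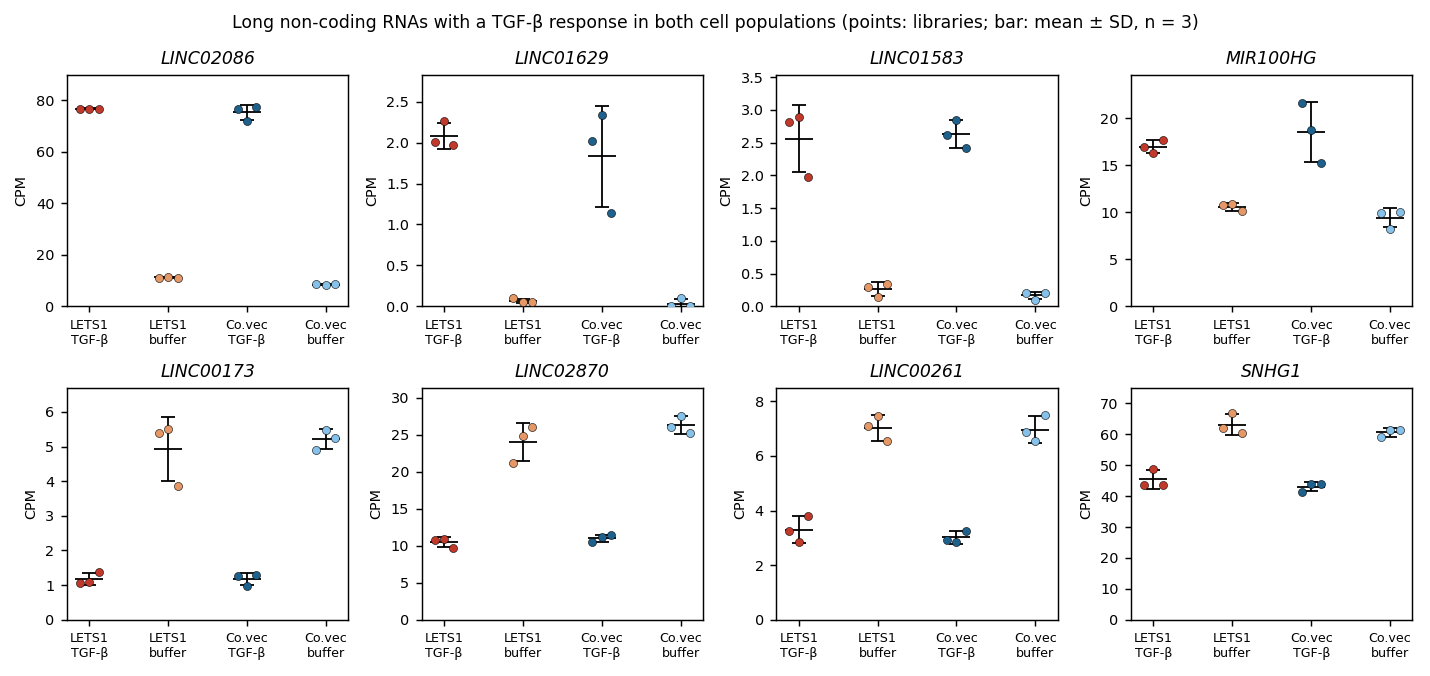
CPM in each of the 12 libraries (points) with mean ± SD (n = 3) for 8 long non-coding RNAs called with TGF-β in both populations. In the upper row the TGF-β libraries are above the buffer libraries of the same cells, and in the lower row they are below them, with no overlap in any of the 8 panels.

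Neighbouring coding genes were compared with members in the same fit, for the 186 members whose nearest coding gene was tested. With TGF-β in LETS1 cells, 46 of 73 called members (63%) had a called neighbour, 28 in the same direction and 18 in the opposite one, and 38.1% of uncalled members had one. In Co.vec cells it was 39 of 70 (55.7%), 27 in the same direction and 12 opposite, against 49.1% of uncalled members. Between LETS1 and Co.vec cells in buffer 12 of 28 called members (42.9%) had a called neighbour, against 16.5% of uncalled members, and with TGF-β 7 of 24 (29.2%), against 16.7%. Of all genes tested, 19.7% rose and 19.1% fell with TGF-β in LETS1 cells, and 21.1% and 18.6% in Co.vec cells. Between LETS1 and Co.vec cells, 8.57% were higher and 6.56% lower in buffer, and 7.58% and 6.5% with TGF-β. Neighbours were not tested as a group, and members near each other can share 1 coding gene.

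Of the microRNA hosts, 6 rose and 5 fell with TGF-β in LETS1 cells, and 8 rose and 2 fell in Co.vec cells, of 28 in all. These are 21.4% and 17.9% in LETS1 cells, beside 19.7% and 19.1% of all genes, and 28.6% and 7.14% in Co.vec cells, beside 21.1% and 18.6%. Several of these calls were lost when single libraries were left out, as given below. Hosts are read here as long transcripts, and the level of a host is not the level of its microRNAs, which total RNA libraries of this kind do not measure. The mature microRNAs of the hosts that changed most are printed as RefSeq (GRCh38.p14) gives them, since the seed, bases 2 to 8 in capitals, sets which messenger RNAs a microRNA can pair with. One arm of each precursor is shown for MIR23AHG on chromosome 19, which carries miR-23a, miR-27a and miR-24, and for MIR22HG on chromosome 17, which carries miR-22.
miR-23a-3p: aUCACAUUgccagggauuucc
miR-27a-3p: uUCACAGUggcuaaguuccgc
miR-24-3p: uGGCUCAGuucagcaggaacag
miR-22-3p: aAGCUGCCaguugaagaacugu
MIR100HG on chromosome 11 carries miR-100, let-7a and miR-125b, and MIRLET7BHG on chromosome 22 carries let-7a and let-7b.
miR-100-5p: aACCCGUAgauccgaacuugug
let-7a-5p: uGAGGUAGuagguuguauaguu
miR-125b-5p: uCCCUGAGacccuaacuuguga
let-7b-5p: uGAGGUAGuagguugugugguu
MIR222HG on chromosome X and MIR181A2HG on chromosome 9 each carry a pair with one seed.
miR-221-3p: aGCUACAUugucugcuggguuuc
miR-222-3p: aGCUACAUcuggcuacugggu
miR-181a-5p: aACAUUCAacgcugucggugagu
miR-181b-5p: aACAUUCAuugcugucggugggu
In all, counting both arms, 87 mature microRNAs lay in 27 member hosts. The let-7 seed was present in 6 of them: MIR100HG, MIR4458HG, MIR4500HG, MIR99AHG, MIRLET7BHG and MIRLET7IHG. MIRLET7A1HG, a member host named for a let-7a gene, had no microRNA within its annotated bounds and is not in these counts.

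MIR100HG and MIR222HG rose with TGF-β in both populations. MIR100HG was at 16.9, 16.3 and 17.7 CPM in LETS1 cells with TGF-β and 10.8, 10.9 and 10.1 CPM in buffer. In Co.vec cells it was at 21.6, 18.7 and 15.2 CPM with TGF-β and 9.92, 8.26 and 10.1 CPM in buffer, and TGF-β libraries were above buffer libraries throughout. It rose by 0.74 ± 0.10 in LETS1 cells (edgeR adjusted p = 1.33e-07) and 1.02 ± 0.10 in Co.vec cells (adjusted p = 9.74e-11), and its neighbour UBASH3B, a phosphatase gene, by 0.77 and 0.74. MIR222HG, which carries the miR-221 and miR-222 pair, rose by 0.76 ± 0.13 in LETS1 cells and 1.02 ± 0.13 in Co.vec cells. MIR181A2HG reached 1 CPM in the TGF-β groups only and rose by 1.35 in both. MIR1915HG rose 1.14-fold in LETS1 cells and 1.28-fold in Co.vec cells. Its call in LETS1 cells was lost without LETS1 TGF-β replicate 1 (edgeR adjusted p = 0.228) or LETS1 buffer replicate 3 (0.200). MIR193BHG rose 1.27-fold in LETS1 cells, a call lost without LETS1 buffer replicate 3 (0.0541). In Co.vec cells it rose 1.29-fold, a call lost without Co.vec TGF-β replicate 1 (0.0598). MIRLET7BHG, which carries let-7 microRNAs as MIR100HG does, fell instead, by 0.84 ± 0.15 in LETS1 cells and 0.56 ± 0.15 in Co.vec cells, and its exons overlap PRR34-AS1 on the same strand. MIR100HG and MIRLET7BHG, which share the let-7 seed, thus changed in opposite directions. The other hosts counted with this seed, MIR4458HG, MIR4500HG, MIR99AHG and MIRLET7IHG, were not called with TGF-β in either population, and neither was MIRLET7A1HG. Among other hosts, MIR210HG, whose microRNA is a known hypoxia target, fell by 0.69 in LETS1 cells (edgeR adjusted p = 2.29e-03), and its change in Co.vec cells was -0.44 (adjusted p = 0.0692). That in Co.vec cells passed the threshold without Co.vec TGF-β replicate 1 (0.0346) or Co.vec buffer replicate 2 (0.0344), and the difference between the populations was not past it. MIR924HG fell by 0.59 in LETS1 cells and by 0.74 in Co.vec cells, and the call in LETS1 cells was lost without LETS1 TGF-β replicates 2 or 3 (0.172 and 0.0629) or LETS1 buffer replicates 1 or 3 (0.113 and 0.0618), with no filter on low counts (0.0526) and in DESeq2 (0.0729). MIR3936HG (1.31-fold lower) and MIR9-1HG (1.74-fold lower) were called with TGF-β in LETS1 cells only. These calls were lost in 7 and 5 alternatives, DESeq2 and single libraries left out among them.

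MIR23AHG carried the clearest difference between the 2 TGF-β responses. It was at 28.4, 23.0 and 24.2 CPM in LETS1 cells with TGF-β and 28.2, 26.6 and 30.5 CPM in LETS1 cells in buffer. The Co.vec libraries were at 32.2, 33.6 and 30.8 CPM with TGF-β and 13.2, 11.7 and 12.8 CPM in buffer. The Co.vec buffer libraries were lower than the other 9, and in LETS1 cells the TGF-β and buffer libraries overlapped. TGF-β changed it by -0.12 ± 0.07 in LETS1 cells (edgeR adjusted p = 0.209) and raised it by 1.41 ± 0.08 in Co.vec cells (adjusted p = 6.28e-18). The response in LETS1 cells minus that in Co.vec cells was -1.52 ± 0.11 (edgeR adjusted p = 1.07e-12). LETS1 cells were 2.27-fold higher than Co.vec cells in buffer (log2 1.18 ± 0.08, edgeR adjusted p = 1.26e-14) and lower with TGF-β (-0.34 ± 0.07, adjusted p = 5.61e-04). Without LETS1 TGF-β replicate 1 the change in LETS1 cells was called lower (edgeR adjusted p = 0.0363). The annotation gives this gene 1 exon of 19049 bases, chr19:13823880-13842928 on the minus strand, antisense to exons of ZSWIM4, so reads of that gene could enter if strand was not used.

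MIR22HG also had a smaller response in LETS1 cells. It was at 51.4, 48.5 and 48.9 CPM in LETS1 cells with TGF-β and 42.7, 44.6 and 44.3 CPM in buffer. Levels in Co.vec cells were 57.6, 52.5 and 52.5 CPM with TGF-β and 29.6, 32.9 and 28.7 CPM in buffer, the lowest of the 4 groups. TGF-β raised it by 0.23 ± 0.06 in LETS1 cells (edgeR adjusted p = 1.19e-03) and by 0.88 ± 0.06 in Co.vec cells (adjusted p = 1.53e-15). The difference of the responses was -0.65 ± 0.08 (edgeR adjusted p = 3.17e-06). LETS1 cells were higher in buffer (0.53 ± 0.06, edgeR adjusted p = 9.74e-09), and with TGF-β the difference was -0.12 ± 0.06 (adjusted p = 0.183). WDR81 starts 651 bp away on the other strand and was called in none of the 5 comparisons. Of the 10 TGF-β check genes, 8 were higher and 0 lower in LETS1 cells in buffer, beside 8.57% and 6.56% of all genes. With TGF-β 3 were higher and 1 lower, beside 7.58% and 6.5%. By the same test 5 had a smaller response in LETS1 cells, JUNB by -1.32 and BHLHE40 by -0.55. Of all genes, 0.599% had a called difference of responses below 0. The 10 genes were chosen with earlier results of these data known, so their counts are a description.

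**Figure D3:**
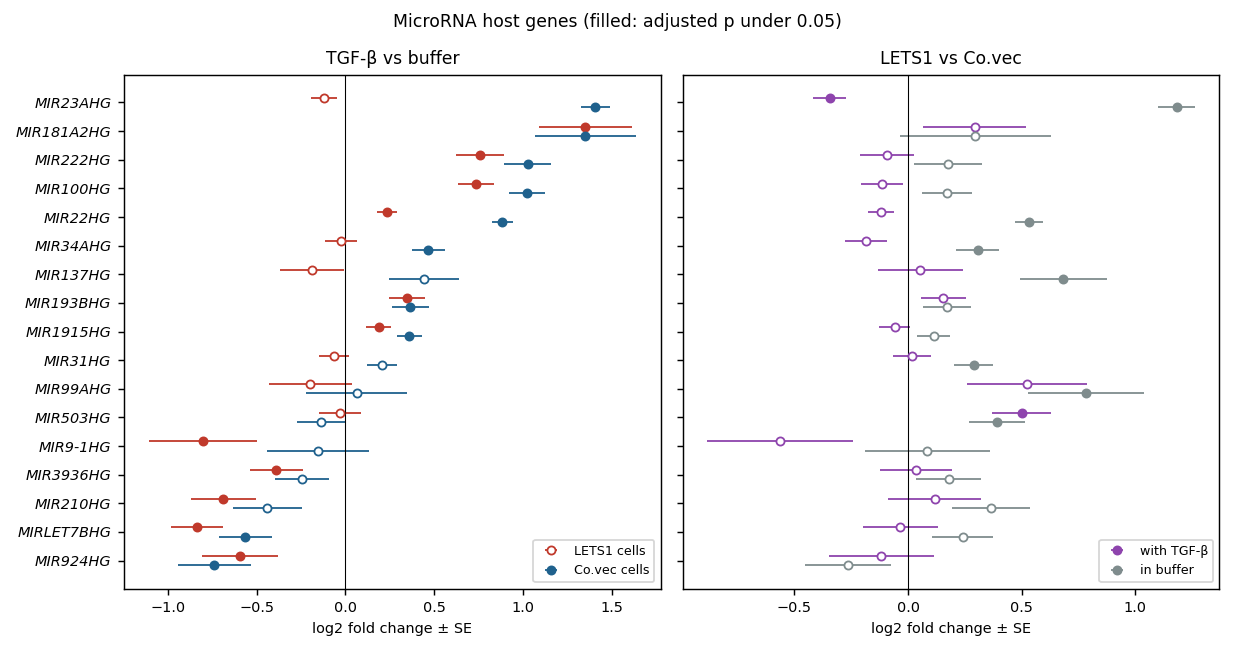
Log2 fold change ± SE of the 17 microRNA host genes called in at least 1 of the 4 comparisons of 2 groups, for TGF-β against buffer (left) and LETS1 against Co.vec (right). Filled points passed an adjusted p of 0.05. MIR23AHG and MIR22HG have well separated points for LETS1 and Co.vec cells on the left and stand above 0 in buffer and below it with TGF-β on the right.

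In buffer 7 of 28 hosts were higher in LETS1 than in Co.vec cells and 0 were lower, and with TGF-β 1 was higher and 1 lower. In buffer 25% of hosts and 8.57% of all genes were higher, and 0% and 6.56% lower, and with TGF-β 3.57% of hosts were called in each direction, beside 7.58% and 6.5% of all genes. Besides MIR23AHG and MIR22HG the 7 were MIR31HG (0.29), MIR34AHG (0.31), MIR137HG (0.68, with exons overlapping DPYD on the same strand), MIR99AHG (0.78) and MIR503HG (0.39). The miR-34a of MIR34AHG is a known p53 target. The host higher with TGF-β was MIR503HG (0.50, edgeR adjusted p = 5.24e-03), a call lost without LETS1 TGF-β replicate 2 (0.123). In buffer, the calls of these 5 were lost when single libraries were left out. For MIR137HG this was Co.vec buffer replicate 3 (edgeR adjusted p = 0.113). For MIR31HG it was LETS1 buffer replicate 2 (0.0633), LETS1 buffer replicate 3 (0.0820) or Co.vec buffer replicate 2 (0.121), and for MIR34AHG the same 3 libraries (0.0510, 0.0864 and 0.201). For MIR99AHG it was LETS1 buffer replicates 1 or 2 (0.184 and 0.0775) or Co.vec buffer replicates 2 or 3 (0.1004 and 0.0841). For MIR503HG it was LETS1 buffer replicates 1 or 2 (0.0901 and 0.149) or Co.vec buffer replicates 1, 2 or 3 (0.0734, 0.0656 and 0.05325). DESeq2 also lost the calls of MIR34AHG (0.06315), MIR99AHG (0.1003) and MIR503HG (0.07003), and that of MIR34AHG was lost with no filter on low counts (0.0536). MIR99AHG reached 1 CPM in the LETS1 groups only, so its selection favoured a higher level there.

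NEAT1 and MALAT1, at chr11:65422774-65445540 and chr11:65497688-65506516 on the plus strand, fell with TGF-β in both populations. NEAT1 was at 232, 212 and 212 CPM in LETS1 cells with TGF-β and 400, 425 and 370 CPM in buffer. Its Co.vec libraries had 286, 283 and 266 CPM with TGF-β and 404, 380 and 342 CPM in buffer. The LETS1 TGF-β libraries were the lowest of all, and in buffer the LETS1 and Co.vec libraries overlapped. NEAT1 fell by 0.81 ± 0.05 in LETS1 cells (edgeR adjusted p = 2.58e-14) and by 0.38 ± 0.05 in Co.vec cells (adjusted p = 3.96e-07). The responses differed by -0.43 ± 0.07 (edgeR adjusted p = 1.12e-03). LETS1 cells were lower than Co.vec cells with TGF-β (-0.34 ± 0.05, edgeR adjusted p = 1.86e-05), and in buffer the difference was 0.09 ± 0.05 (adjusted p = 0.285). FRMD8, which ends 9249 bp before NEAT1 starts on the same strand, rose by 1.78 in LETS1 cells and 1.63 in Co.vec cells.

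MALAT1 was at 468, 438 and 435 CPM in LETS1 cells with TGF-β and 664, 692 and 564 CPM in buffer. In Co.vec cells it was at 617, 628 and 529 CPM with TGF-β and 725, 755 and 746 CPM in buffer, and the LETS1 buffer libraries overlapped the Co.vec TGF-β libraries. It fell by 0.46 ± 0.07 in LETS1 cells (edgeR adjusted p = 1.69e-05) and 0.28 ± 0.07 in Co.vec cells (adjusted p = 2.52e-03). With TGF-β LETS1 cells were lower than Co.vec cells (-0.39 ± 0.07, edgeR adjusted p = 3.71e-04). In buffer the difference was -0.21 ± 0.07 (edgeR adjusted p = 0.0394). That call was lost without LETS1 TGF-β replicates 1 or 3 (0.0559 and 0.0859), LETS1 buffer replicate 3 (0.146) or any 1 of the Co.vec buffer replicates (0.0906, 0.104 and 0.153). It was also lost in DESeq2 (adjusted p = 0.0854). Reads in no annotated gene moved with these nuclear RNAs: they were 2.81% to 2.86% of a library in LETS1 cells with TGF-β, 3.29% to 3.53% in LETS1 cells in buffer, 3.12% to 3.16% in Co.vec cells with TGF-β and 3.21% to 3.51% in Co.vec cells in buffer. Their part in the falls of NEAT1 and MALAT1 was not tested.

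**Figure D4:**
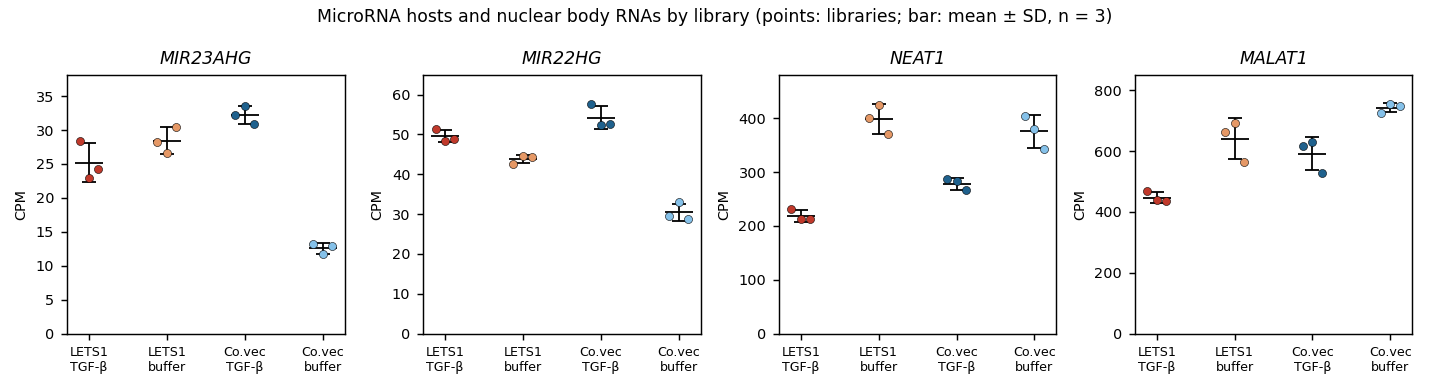
CPM in each library (points) with mean ± SD (n = 3) for MIR23AHG, MIR22HG, NEAT1 and MALAT1. For MIR23AHG and MIR22HG the Co.vec buffer group is lowest, and for NEAT1 and MALAT1 the LETS1 group with TGF-β is lowest.

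Proteins of the nuclear bodies were listed separately, and their counts stand beside 19.7% of all genes rising and 19.1% falling in LETS1 cells and 21.1% and 18.6% in Co.vec cells. Of 20 paraspeckle protein genes, 7 rose and 4 fell with TGF-β in LETS1 cells and 6 rose and 4 fell in Co.vec cells. PSPC1, a core paraspeckle protein, rose by 0.75 in LETS1 cells and 0.72 in Co.vec cells, and AHDC1 fell by 0.45 and 0.51. RBM14, needed for paraspeckle assembly, was higher in LETS1 than in Co.vec cells with TGF-β (0.21) and in buffer (0.32). Of 20 nuclear speckle and SR splicing factor genes, 2 rose and 8 fell in LETS1 cells and 4 rose and 9 fell in Co.vec cells. SRSF10 fell by 0.46 in LETS1 cells and 0.39 in Co.vec cells, while CLK1, a kinase of SR proteins, rose by 0.80 and 1.09.

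Of 21 SNHG genes, 1 rose and 4 fell with TGF-β in LETS1 cells (4.76% and 19%, beside 19.7% and 19.1% of all genes), and 1 rose and 3 fell in Co.vec cells (4.76% and 14.3%, beside 21.1% and 18.6%). Between LETS1 and Co.vec cells 1 was higher and 1 lower in buffer, and 2 were higher and 0 lower with TGF-β, where 8.57% and 6.56% of all genes were called in buffer and 7.58% and 6.5% with TGF-β. Their log2 changes with TGF-β stayed between -0.45 and 0.36 in LETS1 cells and between -0.45 and 0.79 in Co.vec cells. SNHG1, which hosts SNORD22, SNORD25 to SNORD28 and SNORD30, was at 43.7, 48.8 and 43.6 CPM in LETS1 cells with TGF-β and 61.9, 67.0 and 60.5 CPM in buffer. Levels in Co.vec cells were 41.3, 43.8 and 43.9 CPM with TGF-β and 59.0, 61.5 and 61.5 CPM in buffer, and TGF-β and buffer libraries did not overlap. It fell by 0.42 ± 0.06 in LETS1 cells (edgeR adjusted p = 7.43e-08) and 0.45 ± 0.06 in Co.vec cells (adjusted p = 2.30e-08). SLC3A2, an amino acid transporter subunit gene that starts 188 bp away on the other strand, rose by 0.13 in LETS1 cells and 0.17 in Co.vec cells.

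SNHG4 fell by 0.29 ± 0.07 in LETS1 cells and 0.33 ± 0.07 in Co.vec cells, and its exons overlap MATR3, so its counts are uncertain. SNHG26 rose by 0.36 ± 0.13 in LETS1 cells (edgeR adjusted p = 0.0222) and 0.79 ± 0.13 in Co.vec cells (adjusted p = 2.85e-06). The call in LETS1 cells was lost without LETS1 TGF-β replicate 2 (0.0818) or LETS1 buffer replicate 3 (0.0798). SNHG19 was at 14.4, 11.3 and 12.5 CPM in LETS1 cells with TGF-β and 7.52, 9.85 and 8.41 CPM in Co.vec cells with TGF-β. In buffer it was at 14.5, 13.7 and 10.4 CPM in LETS1 cells and 9.97, 10.7 and 10.4 CPM in Co.vec cells, where the groups overlapped. With TGF-β it was higher in LETS1 cells by 0.58 ± 0.11 (edgeR adjusted p = 2.93e-04). In buffer the difference was 0.32 ± 0.11 (adjusted p = 0.0452), and that call was lost without LETS1 buffer replicates 1 or 2 (0.256 and 0.187) or Co.vec buffer replicates 1, 2 or 3 (0.128, 0.0903 and 0.0874), and in DESeq2 (0.0894). SNHG5 was lower in LETS1 cells in buffer (-0.20 ± 0.06, edgeR adjusted p = 0.0112), a call lost without LETS1 buffer replicate 3 (0.0553) or Co.vec buffer replicate 2 (0.0688). SNHG14, the long host of the SNORD115 and SNORD116 clusters, was called in none of the 5 comparisons. SNHG20 fell by 0.45 in LETS1 cells with TGF-β (edgeR adjusted p = 7.14e-03). The calls of SNHG3 (-0.21, TGF-β in LETS1 cells), SNHG29 (-0.11, TGF-β in Co.vec cells) and SNHG30 (0.30, LETS1 against Co.vec with TGF-β) had edgeR adjusted p between 0.0392 and 0.0488, and each was lost without any of at least 8 single libraries.

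Many SNHG transcripts are known to begin like ribosomal protein messages, with a C followed by an uninterrupted run of pyrimidines (a 5′ TOP start). Their start sequences are shown for this feature. Each is 40 bases around the RefSeq start (GRCh38.p14), which is base 16, 5′ to 3′ on the gene's strand, and capitals mark the run of C and T that includes the start. The marked run can begin before the start, as in SNHG1, SNHG5 and SNHG19. SNHG1 lies at chr11:62855861-62855900, SNHG5 at chr6:85678709-85678748 and SNHG19 at chr16:2155334-2155373 on the minus strand. SNHG4 lies at chr5:139274086-139274125 on the plus strand.
SNHG1: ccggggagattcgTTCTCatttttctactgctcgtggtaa
SNHG4: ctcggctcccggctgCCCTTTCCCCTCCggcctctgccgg
SNHG5: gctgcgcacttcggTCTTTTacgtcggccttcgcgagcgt
SNHG19: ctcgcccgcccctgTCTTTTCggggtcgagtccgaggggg
A C start within a run of at least 5 pyrimidines, bases before the start included, was found in 9 of 18 SNHG windows (50%), in 14 of 157 LINC windows (8.92%) and in 7.32% of all RefSeq windows. Runs from the start onwards were not counted separately, so these are not shares of TOP starts. The lists that follow stand beside 19.7% of all genes rising and 19.1% falling with TGF-β in LETS1 cells, and 21.1% and 18.6% in Co.vec cells. Of 35 other genes with known TOP starts, mostly ribosomal proteins, 0 were called with TGF-β in LETS1 cells and 0 rose and 3 fell in Co.vec cells. In LETS1 against Co.vec cells 1 was higher and 5 lower in buffer, RPL23 with a log2 difference of -0.18, and 1 was higher with TGF-β, beside 8.57% and 6.56% of all genes in buffer and 7.58% and 6.5% with TGF-β. Of 13 genes for snoRNA-binding proteins, 1 rose and 2 fell with TGF-β in LETS1 cells and 0 rose and 6 fell in Co.vec cells, NOP56 falling by 0.30 in LETS1 and 0.32 in Co.vec cells. Of 16 nonsense-mediated decay factor genes, the machinery that degrades many spliced SNHG transcripts, 7 rose and 1 fell in LETS1 cells and 5 rose and 3 fell in Co.vec cells, UPF1 rising by 0.46 and 0.31. Of 16 microRNA processing genes, 5 rose and 3 fell in both populations, AGO2 rising by 0.54 and 0.59 and LIN28B, a blocker of let-7 maturation, falling by 0.81 and 0.76.

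Between LETS1 and Co.vec cells the members were called about as often as genes in general. In buffer 20 were higher and 18 lower (8.47% and 7.63%), while 8.57% of all genes tested were higher and 6.56% lower. With TGF-β 14 were higher and 20 lower (5.93% and 8.47%), while 7.58% of all genes were higher and 6.5% lower. The median log2 fold change of members was 0.04 in buffer and -0.04 with TGF-β, against 0.01 and -0.00 for all genes. In both conditions, which share no library, 10 members were higher (4.24%; 4.77% of all genes) and 11 lower (4.66%; 3.6% of all genes), and MIR23AHG alone changed sides. Of the 10 higher members 7 had a mean of at least 1 CPM over all 12 libraries, as did all 11 lower ones. For members that reached 1 CPM in only 1 cell population, a difference between the populations was favoured by how members were chosen. For the difference between the 2 TGF-β responses 0 members were called higher and 3 lower (1.27%), namely MIR23AHG, MIR22HG and NEAT1, while 0.0803% of all genes were called higher and 0.599% lower. At least 2-fold, 6 members were higher and 5 lower in LETS1 cells in buffer, beside 1.4% and 0.865% of all genes, and 5 were higher and 4 lower with TGF-β, beside 1.24% and 0.661%. Of the 208 members with a mean of 1 CPM over all 12 libraries, 3 were higher and 3 lower in buffer. With TGF-β 2 of the 208 were higher and 4 lower, so part of the 2-fold counts came from RNAs near the level limit. MIR23AHG was the 1 member with a called difference of responses of at least 2-fold. Among all genes, 0.0741% had such a called difference below 0 (LETS1 minus Co.vec) and 0.0% had one above 0. In all, 100 of the 236 members were called in none of the 5 comparisons.

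**Figure D5:**
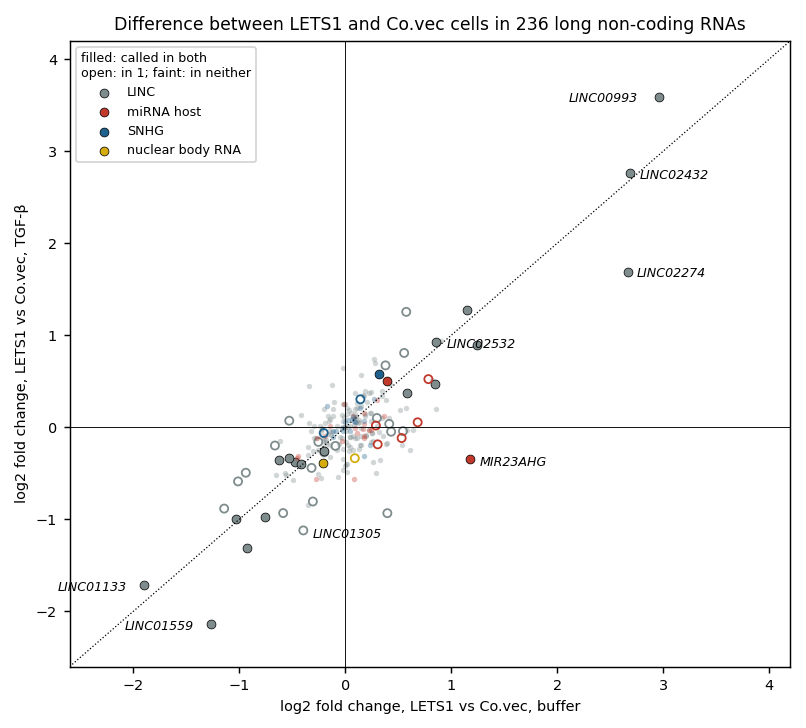
Log2 fold change of the 236 long non-coding RNAs between LETS1 and Co.vec cells in buffer (x axis) and with TGF-β (y axis). Filled points were called in both comparisons, open points in 1 and faint points in neither, the colour gives the class, and the dotted line marks equal change. LINC00993, LINC02432 and LINC02274 lie at the upper right, LINC01133 and LINC01559 at the lower left, and MIR23AHG is the filled point below 0 on the y axis and above 0 on the x axis.

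LINC00993 differed most. The annotation calls it a transcribed pseudogene, and its locus (chr10:37248118-37347031, plus strand) reaches ANKRD30A, a breast differentiation antigen gene. It was at 2.11, 1.52 and 1.98 CPM in LETS1 cells with TGF-β, against 0.151, 0.0507 and 0.247 CPM in Co.vec cells with TGF-β. In buffer it was at 2.15, 2.34 and 2.72 CPM in LETS1 cells, against 0.202, 0.355 and 0.354 CPM in Co.vec cells. All LETS1 libraries were above all Co.vec libraries, and since it reached 1 CPM in LETS1 cells only, its selection favoured such a difference. The log2 fold change was 3.59 ± 0.37 with TGF-β and 2.96 ± 0.30 in buffer, and that of ANKRD30A was 2.88 and 2.89. Reads may be split between ANKRD30A and its pseudogene copies, so the pair is not 2 independent observations. LINC02432 and LINC02274 each reached 1 CPM in the LETS1 buffer group alone, so their selection favoured a higher level there. In buffer LINC02274 was at 1.25, 1.14 and 1.24 CPM in LETS1 cells and 0.152, 0.101 and 0.303 CPM in Co.vec cells. LINC02432 was at 0.599, 1.24 and 1.19 CPM in LETS1 cells in buffer, against 0.202, 0.152 and 0.101 CPM in Co.vec cells in buffer.

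LINC02532 combined a difference between the cells with a fall under TGF-β. It was at 14.1, 12.9 and 14.6 CPM in LETS1 cells with TGF-β and 24.1, 22.3 and 21.7 CPM in buffer. Its Co.vec libraries had 7.52, 6.85 and 7.77 CPM with TGF-β and 12.5, 13.0 and 12.2 CPM in buffer. LETS1 libraries were above Co.vec libraries under each condition, and TGF-β libraries below buffer libraries in each population. LETS1 cells were higher by 0.92 ± 0.09 with TGF-β (edgeR adjusted p = 4.63e-10) and 0.85 ± 0.08 in buffer (adjusted p = 4.10e-11). TGF-β lowered it by 0.65 ± 0.08 in LETS1 cells and 0.72 ± 0.09 in Co.vec cells.

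LINC01133 and LINC01559 were lower in LETS1 cells. LINC01133 was at 0.501, 0.442 and 0.395 CPM in LETS1 cells with TGF-β, against 2.02, 1.47 and 0.990 CPM in Co.vec cells with TGF-β. In buffer it was at 0.649, 0.497 and 0.544 CPM in LETS1 cells, against 2.38, 1.57 and 2.43 CPM in Co.vec cells, with no overlap in either condition. LINC01133 and LINC01559 both reached 1 CPM in the Co.vec groups only, so their selection favoured a lower level in LETS1 cells. The log2 difference of LINC01133 was -1.72 ± 0.32 with TGF-β and -1.90 ± 0.28 in buffer. LINC01559 differed by -2.14 ± 0.33 with TGF-β and -1.27 ± 0.27 in buffer, and its neighbour EMP1, an epithelial membrane protein gene 190451 bp away, by -0.75 in both. EMP1 rose with TGF-β by 0.68 in both populations, while LINC01559 changed by -1.004 in LETS1 cells (edgeR adjusted p = 0.0370) and -0.13 in Co.vec cells (adjusted p = 0.700). The first of these was lost without LETS1 TGF-β replicates 1 or 3 (0.0983 and 0.0997) or LETS1 buffer replicates 1 or 3 (0.114 and 0.143), with no filter on low counts (0.0840) and in DESeq2 (0.07545). LINC01948 was lower by 1.00 ± 0.20 with TGF-β and 1.03 ± 0.18 in buffer. LINC02582, the LINC RNA highest per length, was at 125, 134 and 130 CPM in LETS1 cells with TGF-β, against 156, 154 and 157 CPM in Co.vec cells with TGF-β. In buffer it was at 154, 157 and 153 CPM in LETS1 cells, against 178, 174 and 182 CPM in Co.vec cells. The groups did not overlap, at a log2 difference of -0.26 ± 0.04 with TGF-β (edgeR adjusted p = 2.64e-05) and -0.20 ± 0.04 in buffer (adjusted p = 8.57e-04).

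Other members passed the threshold under 1 condition, which does not show that the conditions differ. LINC01305 was at 1.91, 1.67 and 2.03 CPM in LETS1 cells with TGF-β, against 3.53, 4.31 and 4.45 CPM in Co.vec cells with TGF-β, a difference of -1.12 ± 0.19 (edgeR adjusted p = 2.22e-05). In buffer the difference was -0.40 ± 0.20 (edgeR adjusted p = 0.199), which passed the threshold without Co.vec buffer replicate 1 (0.0372). The difference between these effects was not past the threshold (-0.73 ± 0.28, edgeR adjusted p = 0.416). SP9, a transcription factor gene 8919 bp away on the same strand, was lower in LETS1 cells by 0.69 with TGF-β and 0.38 in buffer. LINC03064 was lower in LETS1 cells in buffer by 1.14 ± 0.32 (edgeR adjusted p = 0.0112), a call lost without LETS1 buffer replicate 2 (0.0855) or Co.vec buffer replicate 2 (0.0968) and in DESeq2 (0.0679). It reached 1 CPM in the Co.vec buffer group alone, so its selection favoured this difference. With TGF-β its difference was -0.88 ± 0.48 (edgeR adjusted p = 0.246), and the difference between the effects was 0.26 ± 0.62 (adjusted p = 0.977). TOX3, a chromatin-associated gene 59547 bp away, was lower by 1.18 in buffer and 1.05 with TGF-β.

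Of 40 other named long non-coding RNAs outside the symbol rule, 27 were tested. With TGF-β 5 rose and 6 fell in LETS1 cells and 6 rose and 3 fell in Co.vec cells, beside 19.7% and 19.1% of all genes in LETS1 cells and 21.1% and 18.6% in Co.vec cells. CASC15 rose by 0.68 in LETS1 cells and 0.78 in Co.vec cells. H19, an imprinted growth-regulating RNA, was lower in LETS1 cells by 1.41 with TGF-β and 1.65 in buffer. In LETS1 against Co.vec cells 1 of the 27 was higher and 4 lower with TGF-β, and 1 was higher and 2 lower in buffer, beside 7.58% and 6.5% of all genes with TGF-β and 8.57% and 6.56% in buffer.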

How the data were processed

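RNA for 12 A549 libraries was sequenced on the DNBSEQ platform. The values are raw counts per gene, deposited by the authors. Per the submitters' processing notes, the tools were FastQC, cutadapt 2.10, STAR 2.7.5a and HTSeq 0.12.4 with the GRCh38 build. Which annotation release and strand setting were used is not stated by the labels. The 5 special HTSeq rows were left out of library sizes and tests: reads in no gene were 2.81% to 3.53% of a library, ambiguous reads 10.1% to 10.9% and unaligned reads 2.93% to 4.27%.

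CPM was the count times 1000000 over the sum of gene rows. Differences came from edgeR 4.0.16 (R 4.3.3, limma 3.58.1; TMM scaling, filterByExpr, robust quasi-likelihood fit of 1 mean per group over 12 libraries), with Benjamini-Hochberg adjustment over 16192 genes and a threshold of 0.05. Each standard error (SE) was obtained by dividing the absolute log2 change by the root of its F statistic, and the fit was tested on simulated data with known changes. Alternatives were DESeq2 1.42.0, its size factors, no filter, a replicate block, single libraries left out, 6-library fits, a 2-fold minimum (log2 of 1) and a stricter level rule. Replicate numbers did not pair the libraries (residual correlations -0.0573 to 0.0472), and replicates differed by more than counting noise (chi-square per degree of freedom 2.16 to 5.24). Positions and neighbours are from GENCODE 29, which held 235 of 236 members, and RefSeq gave windows for 180.

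The members and gene lists were chosen with earlier results of these data known. Named were MALAT1, NEAT1, members among the 6 largest rises or falls of a comparison (4 for the difference of responses), the 6 highest by level, called SNHG and microRNA hosts, 3 members on each side of the level limit, and leading genes of the lists.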

Additional observations from a re-analysis of the deposited data

Results flagged for a closer look

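The TGF-β response differed between LETS1 and Co.vec cells for 3 of the 236 RNAs by the test of the difference itself. The response in LETS1 cells minus that in Co.vec cells was -1.52 on the log2 scale for MIR23AHG, -0.65 for MIR22HG and -0.43 for NEAT1. For MIR23AHG and MIR22HG the Co.vec buffer libraries stood below the other 9. For NEAT1 the LETS1 libraries with TGF-β stood below the other 9.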

How the results depend on the processing

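Among the named values, none that was called in the main edgeR fit or in the alternative changed direction. Other values were not checked for this. DESeq2 called 13 members higher in LETS1 than in Co.vec cells in buffer, against 20 in edgeR. With a 2-fold minimum, 6 members were higher and 5 lower in LETS1 cells in buffer, and 5 higher and 4 lower with TGF-β. Among the 208 members with a mean of 1 CPM over all 12 libraries these were 3 and 3 in buffer and 2 and 4 with TGF-β. With the same minimum, TGF-β calls were 7 higher and 9 lower in LETS1 cells and 12 higher and 9 lower in Co.vec cells, and 1 response was smaller in LETS1 cells. Leaving out single libraries gave 14 to 20 members higher and 12 to 19 lower in LETS1 cells in buffer, and 10 to 15 higher and 13 to 19 lower with TGF-β. The low of 13 came without LETS1 TGF-β replicate 2, against 20 with it. It gave 24 to 34 higher and 49 to 63 lower for TGF-β in LETS1 cells, 30 to 38 and 42 to 54 in Co.vec cells, and 0 to 0 and 3 to 4 for the difference of responses. Among the named values so refitted, 1508 kept their side of the threshold, 126 lost a call and 22 gained one. Low counts limit the RNAs near 1 CPM, though some calls of abundant members such as MALAT1 and SNHG29 were lost too.

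With the replicate block, 20 members were higher and 16 lower in LETS1 cells in buffer, and 13 higher and 19 lower with TGF-β. For TGF-β in LETS1 cells the block gave 29 higher and 62 lower, and in Co.vec cells 36 and 55. It gave 3 members with a negative difference of responses (LETS1 minus Co.vec). The numbers are shared labels only, and 0 of 18 same-number pairs had a residual correlation over 0.1. The level rule gave 232 members with TMM-scaled sizes and 208 by the 12-library mean.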
